A study of Mus musculus with 9 samples.

Results

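The genes that encode the nuclear share of the mitochondrial respiratory chain were compared over 3 populations of dendritic cells from the mouse thymus. Members were the rows of the count table whose gene symbol begins with Nduf followed by a, b, c, s or v, with Uqcr, with Cox4 to Cox8, with Atp5, or with Sdh followed by a to d. Names ending in -ps, the usual mark of a pseudogene, were left out. Of 110 matching rows 9 were dropped in this way, which left 101 members among 55302 rows. They comprise 89 subunits and their paralogs and 12 assembly factors, whose names also begin with Nduf or Sdh. By complex, 39 belong to complex I, 4 to complex II, 8 to complex III, 21 to complex IV and 17 to complex V.

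The respiratory chain passes electrons from NADH (complex I) and succinate (complex II) through ubiquinone, complex III and cytochrome c to oxygen at complex IV. The proton gradient built on the way drives ATP synthase, complex V. A few core subunits are encoded by mitochondrial DNA and all others, with the whole of complex II, by nuclear genes. In mouse spleen, conventional type 1 dendritic cells have been described as relying more on mitochondrial respiration than type 2 cells.

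CD301b, SIRPa and XCR1 libraries, 3 of each, were made from sorted thymic dendritic cells of C57BL/6 mice aged 8 weeks. CD301b is a lectin of a subset of type 2 dendritic cells, SIRPa a receptor of type 2 cells more broadly, and XCR1 a chemokine receptor of type 1 cells. The labels name no mutation and no treatment for any group. The series describes 3 mice, but the sort gates, the mouse behind each library and any pooling are not stated in the labels, so p-values measure only the spread between these libraries, and 1 label field calls the material thymocytes where another calls it dendritic cells.

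Library totals ranged from 20246092 to 25438864 counts. Levels are given as CPM, the usual measure of reads relative to library depth, with library totals scaled by TMM factors. Mgl2, the gene for CD301b, averaged 624 ± 58.2 CPM in CD301b libraries, 23.2 ± 5.32 in SIRPa libraries and 1.82 ± 0.508 in XCR1 libraries (SD, n = 3 each). Xcr1 averaged 0.619 ± 0.403, 9.61 ± 5.19 and 766 ± 96.7 CPM in the same order. The 11 thymocyte and T cell markers together stood at 122 to 326 CPM in CD301b libraries, 120 to 292 in SIRPa libraries and 67.1 to 416 in XCR1 libraries. The 7 macrophage markers stood at 1407 to 1631 CPM in CD301b libraries, 2309 to 2674 in SIRPa libraries and 88.3 to 108 in XCR1 libraries, and the 12 cell cycle markers at 1220 to 1272, 915 to 1184 and 1787 to 2382 CPM. In the same order, 6 monocyte and granulocyte markers stood at 542 to 633, 481 to 534 and 27.4 to 74.9 CPM, 6 plasmacytoid markers at 147 to 187, 159 to 178 and 74.8 to 111, and 6 B cell markers at 149 to 160, 164 to 214 and 85.8 to 137. The 9 markers of thymic epithelium and stroma stood at 114 to 132, 56.7 to 67.9 and 19.4 to 27.4 CPM. Markers at 0 in all libraries of a population included Ptcra, Ms4a1, Pax5, Retnlg and Col3a1 in CD301b, Pdgfra, Col1a1 and Col3a1 in SIRPa, and Cd79a in XCR1 libraries. The part of these markers in the results that follow was not tested.

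A total of 93 members had enough reads to be tested, 81 subunits or paralogs and all 12 assembly factors. Cox7b2, Cox8b, Cox8c, Ndufa11b, Ndufa4l2 and Ndufs6b had no read in any library, where 3 reads would have given 0.1195 to 0.1497 CPM. Cox8b is the muscle form of subunit 8 and Ndufa4l2 a hypoxia-induced relative of Ndufa4. Cox4i2 and Cox6c2 had reads but were too low to be tested. Cox6c2, Ndufa11b, Ndufb4c and Ndufs6b are annotated as processed pseudogenes although their names passed the rule. Ndufb1-ps, which the rule left out, was read at 45.3, 41.0 and 26.5 CPM in CD301b libraries, 29.0, 28.6 and 34.1 in SIRPa libraries and 44.2, 48.9 and 45.5 in XCR1 libraries.

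Per kilobase of a reference transcript, the members with the highest levels over the 9 libraries were Atp5h, a subunit of the ATP synthase stalk, at 407 CPM per kb, and Cox6c, a small subunit of complex IV, at 320. Atp5mpl followed at 260 and Atp5b, the catalytic beta subunit, at 227 CPM per kb. Members varied between libraries of 1 population by a median SD of 14.8% of the mean, which was 10.6% for the 10 members of at least 100 CPM and 25% for the 24 under 20 CPM.

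Summed over the 89 subunit genes, the chain took 5757, 5863 and 4838 CPM in CD301b replicates 1, 3 and 4. The sum was 4578, 4944 and 4974 CPM in the SIRPa libraries and 5607, 5936 and 5522 CPM in the XCR1 libraries. This was 0.472% to 0.568% of the counts of a library. All 3 SIRPa libraries lay below all 3 XCR1 libraries, while the CD301b libraries overlapped both, since replicate 4 lay below 2 of the SIRPa libraries and the other two lay within the XCR1 range. CD301b replicate 4 also held the highest sum of the 13 mitochondrially encoded subunits, 7206 CPM, against 5059 and 4352 CPM in CD301b replicates 1 and 3. In bulk libraries such as these, fewer cells of a type and less RNA per cell cannot be told apart.

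**Figure D1:**
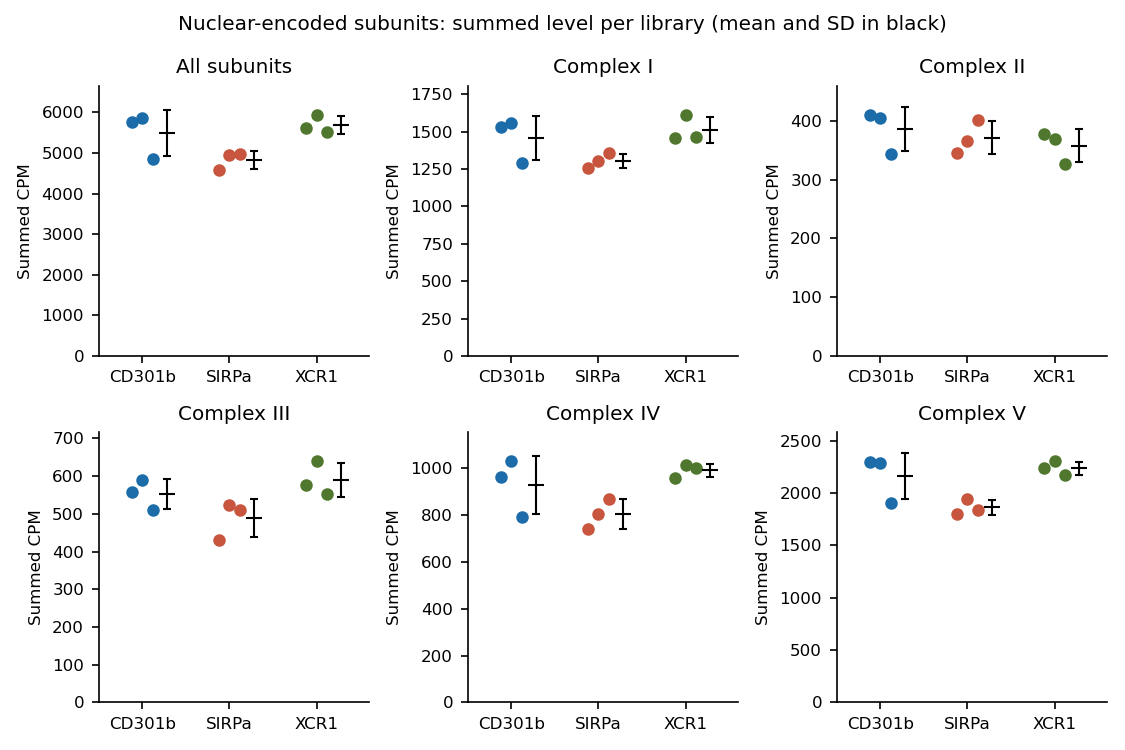
Summed CPM (y axis) of all nuclear-encoded subunits and of complexes I to V in each of the 9 libraries, by population (x axis); black marks give the mean and SD of 3 libraries. In all subunits, the SIRPa libraries reach at most 4974 CPM and the XCR1 libraries start at 5522 CPM, and the complex II panel shows no such gap.

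Complexes I, III, IV and V had their means in the order XCR1, CD301b, SIRPa from high to low, and complex II did not. Complex V summed to 2162 ± 221 CPM in CD301b libraries, 1862 ± 74.7 in SIRPa libraries and 2237 ± 62.2 in XCR1 libraries (SD, n = 3 each). Complex IV stood at 928 ± 123, 806 ± 64.5 and 991 ± 29.7 CPM, complex III at 553 ± 40.2, 488 ± 50.2 and 589 ± 44.6, and complex I at 1458 ± 148, 1305 ± 49 and 1513 ± 86.1 CPM, all in the same order of populations. Complex II, which is also an enzyme of the tricarboxylic acid cycle, stood at 386 ± 37.3 CPM in CD301b libraries, 371 ± 28.3 in SIRPa libraries and 357 ± 27.9 in XCR1 libraries. Its libraries overlapped between all populations. Over single genes, 40 of the 93 tested members had their means in the order XCR1, CD301b, SIRPa from high to low, 60 had their lowest mean in SIRPa libraries and 52 their highest in XCR1 libraries. These orders were not counted over all genes, so the counts do not set the members apart from other genes.

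The 3 comparisons share libraries with each other, so their values stand side by side and are not independent. A gene was called where the edgeR quasi-likelihood test gave a Benjamini-Hochberg adjusted p under 0.05 over all 15417 genes tested. In all, 22 members were called in at least 1 comparison and 71 in none. This count was not made over all genes, so it does not set the members apart from other genes. Log2 fold changes are given with a standard error, taken as the size of the fold change divided by the square root of its F statistic.

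SIRPa against XCR1 cells gave the most calls of the 3 comparisons. Of the 93 members, 19 (20.4%) were lower in SIRPa cells and 0 higher, where over all genes 10.7% were lower and 13.9% higher. At an unadjusted p under 0.05 there were 27 members in either direction (29%), against 33.3% of all genes, and DESeq2 called 1 member higher. The median log2 fold change was -0.21 over the members and 0.06 over all genes. A negative value was found in 72 members and in 7154 of the 15417 genes tested. The 19 called members had all 3 SIRPa libraries below all 3 XCR1 libraries, as did 13 members that did not pass the test. These 32 members made 34.4%, against 18.1% of all tested genes. The reverse held for 2 members (2.15%), against 22.1% of all genes. By complex, 5 of 37 tested genes were lower in complex I, 0 of 4 in complex II, 3 of 8 in complex III, 5 of 15 in complex IV and 5 of 17 in complex V, with 1 of 12 assembly factors.

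**Figure D2:**
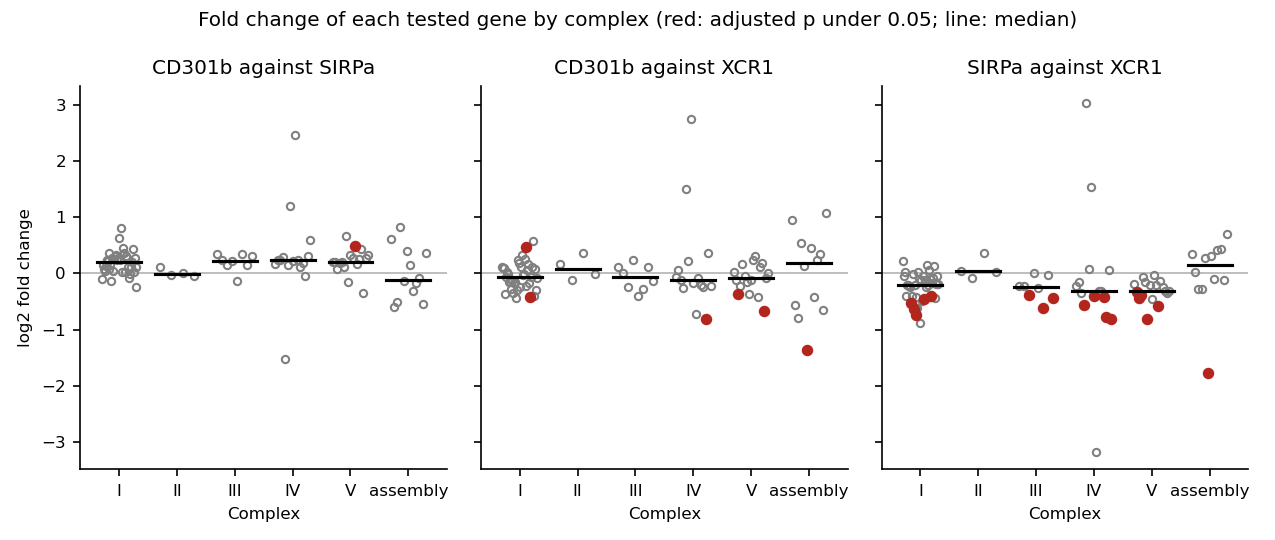
Log2 fold change (y axis) of each tested member by complex (x axis) in the 3 comparisons, with called genes filled in red, other genes open and the median of each complex as a black line. In SIRPa against XCR1 cells the medians of complexes I, III, IV and V lie at -0.20, -0.25, -0.32 and -0.32 and that of complex II at 0.04.

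In complex III, Uqcrfs1 had the smallest adjusted p of all members in this comparison. It encodes the Rieske iron-sulfur protein, which takes the first electron from ubiquinol, and lies on chromosome 13 at 30540308 to 30545362 (GRCm38, minus strand). Its level was 62.1, 63.9 and 55.3 CPM in SIRPa libraries, against 87.3, 103 and 88.2 CPM in XCR1 libraries. The populations were apart by more than their spread, with a log2 fold change of -0.62 ± 0.13 (adjusted p = 0.00127). The CD301b libraries, at 77.3, 83.1 and 69.7 CPM, lay between them without overlap, but neither of their differences passed (adjusted p = 0.195 against SIRPa and 0.152 against XCR1). Uqcrq and Uqcrb, small subunits of the same complex, were lower in SIRPa cells as well, by -0.43 ± 0.15 (adjusted p = 0.0333) and -0.39 ± 0.14 (adjusted p = 0.0467). Uqcrc1, a core protein and the complex III gene with the highest mean, had 84.9, 113 and 100 CPM in SIRPa and 81.3, 115 and 100 CPM in XCR1 libraries, with a log2 fold change of 0.01 ± 0.14.

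In complex I the called genes were 5 of the 29 that encode supernumerary subunits, which surround the catalytic core (median -0.21), and 0 of the 7 core genes (median -0.10). Whether the kinds of subunit differ was not tested. Ndufb11, a membrane arm subunit encoded on chromosome X at 20615326 to 20617619, had 37.1, 34.0 and 36.8 CPM in SIRPa libraries, against 57.9, 71.5 and 50.6 CPM in XCR1 libraries. The groups did not overlap, and the log2 fold change was -0.74 ± 0.16 (adjusted p = 0.00146). Its exons share 117 of 908 bases with Rbm10 on the opposite strand, and the strand setting of the counting is not known here.

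Ndufa9, a subunit at the junction of the 2 arms, had 39.8, 43.5 and 40.6 CPM in SIRPa libraries, against 67.0, 66.7 and 57.4 CPM in XCR1 libraries. The SIRPa libraries were close together and all lower, by -0.63 ± 0.16 (adjusted p = 0.00466). Ndufs4, an accessory subunit of the peripheral arm whose loss in mice causes a Leigh-like encephalopathy, was lower by -0.40 ± 0.13 (adjusted p = 0.0252). Its call was lost when libraries were scaled by their totals and without SIRPa replicate 1 or 2 or XCR1 replicate 1 or 2. Ndufa6 and Ndufb8, a pair of further accessory subunits, were lower by -0.52 ± 0.18 (adjusted p = 0.0335) and -0.46 ± 0.16 (adjusted p = 0.0421), each call kept in 9 of 16 alternatives.

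In complex IV the called genes were Cox7c, Cox6a1, Cox6c, Cox7b and Ndufa4, all small subunits around the mitochondrially encoded core. Cox7c had 21.8, 25.1 and 28.3 CPM in SIRPa libraries, against 43.0, 40.3 and 45.3 CPM in XCR1 libraries, a log2 fold change of -0.77 ± 0.19 (adjusted p = 0.00361). Cox6a1 had 50.6, 40 and 38.8 CPM in SIRPa libraries, against 70.0, 60.1 and 60.3 CPM in XCR1 libraries (-0.56 ± 0.16, adjusted p = 0.012). In both genes every SIRPa library was lower than every XCR1 library, and the Cox6a1 call was lost without SIRPa replicate 2 or 3 or XCR1 replicate 1. Ndufa4, once counted in complex I and now placed in complex IV, was at 8.71, 16 and 18.2 CPM in SIRPa libraries, against 22.7, 23.0 and 29.9 CPM in XCR1 libraries (-0.82 ± 0.26, adjusted p = 0.0233), a call lost without SIRPa replicate 1, the lowest library, or XCR1 replicate 3. Cox6c, the most abundant gene of the complex, was lower by -0.40 ± 0.12 (adjusted p = 0.0172; lost without SIRPa replicate 1) and Cox7b by -0.42 ± 0.15 (adjusted p = 0.0459). Cox4i1, the ubiquitous form of subunit 4, did not pass, at 103, 144 and 131 CPM in SIRPa libraries and 139, 147 and 157 CPM in XCR1 libraries.

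In complex V all 17 log2 fold changes were negative and 5 genes passed. Over all 15417 genes tested 7154 were negative, and 10.7% were called lower. Atp5b had 387, 406 and 354 CPM in SIRPa libraries, against 502, 484 and 454 CPM in XCR1 libraries, a log2 fold change of -0.33 ± 0.09 (adjusted p = 0.0123). Atp5c1 and Atp5d, the gamma and delta subunits of the central stalk, were lower by -0.43 ± 0.12 (adjusted p = 0.013) and -0.39 ± 0.14 (adjusted p = 0.0454). Of the 5 genes of the F1 part 3 passed, with every SIRPa library below every XCR1 library in each, and the Atp5c1 call was lost without SIRPa replicate 1 or XCR1 replicate 2. Atp5j2, a membrane subunit, was lower by -0.58 ± 0.19 (adjusted p = 0.0252). Atp5a1, the alpha subunit and the member with the highest mean CPM, had 429, 442 and 434 CPM in SIRPa libraries and 525, 493 and 468 CPM in XCR1 libraries, and did not pass (-0.19 ± 0.11, adjusted p = 0.234).

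The call of 19 lower genes was 8 without SIRPa replicate 1, 11 without SIRPa replicate 2, 9 without XCR1 replicate 1 and 10 without XCR1 replicate 2, and 11 when libraries were scaled by their totals alone. In these fits the share of members called lower was 8.51%, 11.8%, 9.57%, 10.6% and 11.8% in the order given, against 8.16%, 8.47%, 8.12%, 8.17% and 8.88% of all genes. Without SIRPa replicate 1 or XCR1 replicate 1 the members' share was therefore near that of all genes. Uqcrfs1, Ndufb11, Cox7c and Ndufa9 passed in all 16 alternatives, and all 19 kept their sign in each of them. Without XCR1 replicate 2, 1 member was higher, Sdhaf2.

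**Figure D3:**
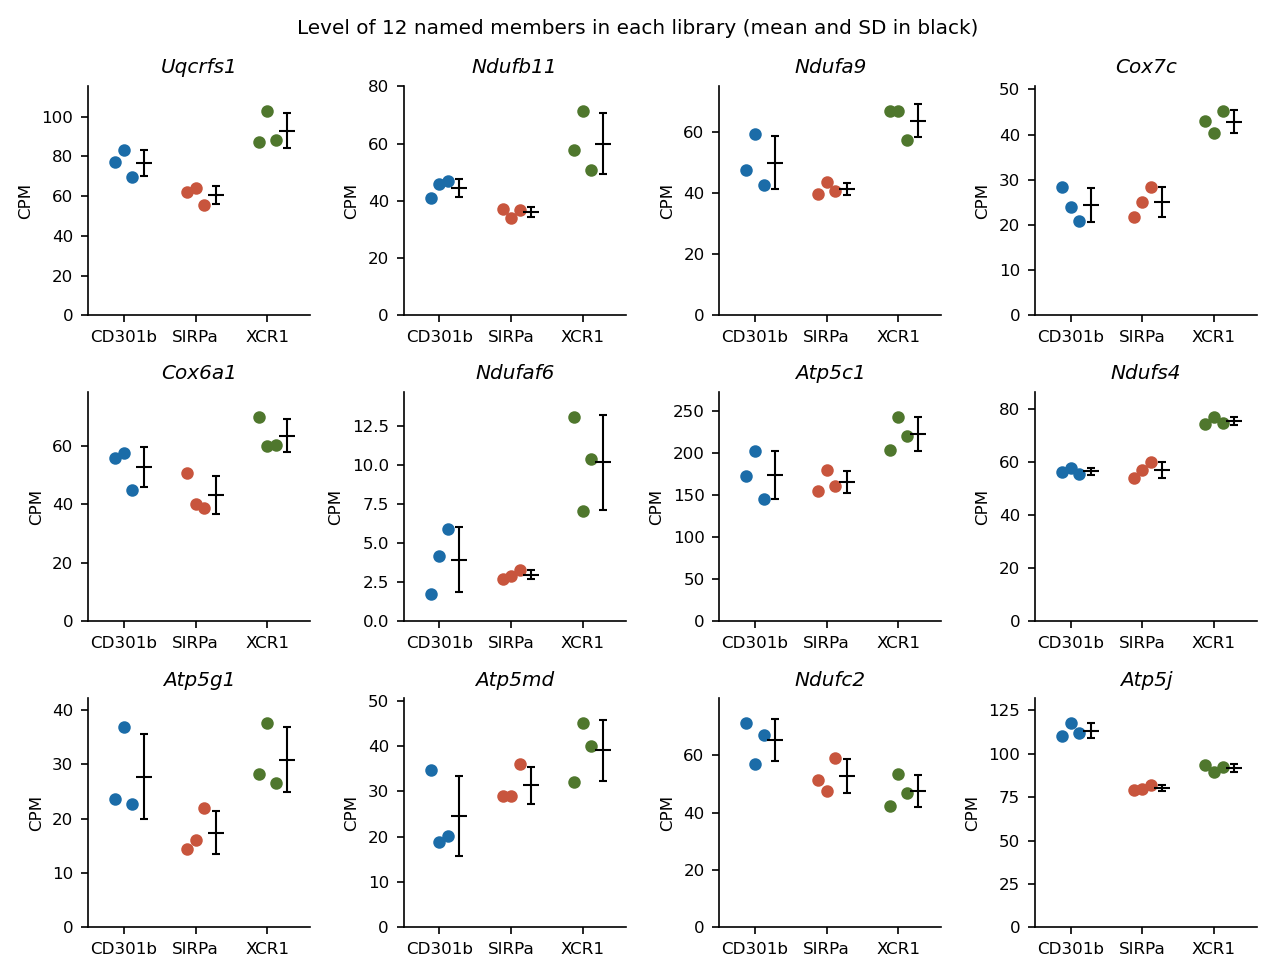
CPM (y axis) of 12 named members in each library by population (x axis), with the mean and SD of 3 libraries in black. Uqcrfs1, Ndufb11, Ndufa9 and Cox6a1 have their lowest mean in SIRPa libraries, Cox7c, Ndufs4 and Ndufaf6 are about as low in CD301b as in SIRPa libraries, and Atp5j is highest in CD301b libraries.

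CD301b against XCR1 cells differed in few members. Ndufc2 was higher in CD301b cells, where 13.5% of all genes were higher, and 5 members were lower, where 9.12% of all genes were lower. Both shares of members, 1.08% and 5.38%, were below those of all genes. The median log2 fold change was -0.07 over the members and 0.05 over all genes, and 17 members (18.3%) had an unadjusted p under 0.05, against 32.2% of all genes. All CD301b libraries lay below all XCR1 libraries in 13 members (14%) and above them in 6 (6.45%), against 15.4% and 19% of all genes. Cox7c had 28.3, 23.9 and 20.8 CPM in CD301b libraries, against 43.0, 40.3 and 45.3 CPM in XCR1 libraries (-0.82 ± 0.19, adjusted p = 0.00257). Ndufs4 had 56.1, 57.9 and 55.5 CPM in CD301b libraries, against 74.3, 77.1 and 74.7 CPM in XCR1 libraries (-0.42 ± 0.13, adjusted p = 0.0233). Neither gene had overlapping libraries.

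Atp5c1, the gamma subunit, had 173, 202 and 145 CPM in CD301b libraries, against 203, 243 and 220 CPM in XCR1 libraries (-0.36 ± 0.12, adjusted p = 0.0395). Atp5md, a small protein of the synthase membrane part, had 34.7, 18.8 and 20.2 CPM in CD301b libraries, against 32.0, 45.2 and 40 CPM in XCR1 libraries (-0.67 ± 0.23, adjusted p = 0.0366). CD301b replicate 1 lay within the XCR1 range of Atp5md, so its groups overlapped. Ndufc2, a membrane arm subunit of complex I, had 71.3, 57.0 and 67.1 CPM in CD301b libraries, against 42.3, 53.3 and 46.8 CPM in XCR1 libraries (0.46 ± 0.15, adjusted p = 0.0351). It was above in all libraries, but the call was kept in 7 of 16 alternatives. The 5 lower genes became 2 without CD301b replicate 1 or XCR1 replicate 2 and 3 when CD301b replicate 4 or XCR1 replicate 1 or 3 was left out, and Ndufc2 was not called without CD301b replicate 1, CD301b replicate 4, XCR1 replicate 1, XCR1 replicate 3 or any 1 SIRPa library. Without CD301b replicate 3 there were 2 higher genes, and the median of the members was 0.02 without CD301b replicate 4.

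The assembly factor Ndufaf6, needed to build complex I, was lower against XCR1 cells in both comparisons. It had 1.75, 4.19 and 5.92 CPM in CD301b and 2.74, 2.90 and 3.30 CPM in SIRPa libraries, against 13.1, 7.03 and 10.4 CPM in XCR1 libraries. No library of the first pair of populations reached the XCR1 range. The log2 fold change was -1.36 ± 0.48 for CD301b (adjusted p = 0.0456) and -1.77 ± 0.49 for SIRPa cells (adjusted p = 0.00982). The first call was lost without any 1 library other than CD301b replicate 4 and XCR1 replicate 2, and the second without XCR1 replicate 1 (adjusted p = 0.0637). None of the other 11 assembly factors passed in any comparison. Of all 12, 8.33% were lower and 0 higher in each comparison against XCR1 cells. The lower share was near the 9.12% (CD301b) and 10.7% (SIRPa) of all genes, of which 13.5% and 13.9% were higher. Sdhaf2, a flavin-insertion factor of complex II, had the highest mean of the assembly factors. Its level was 39.8, 32.5 and 31.6 CPM in CD301b libraries, 34.2, 37.2 and 39.7 in SIRPa libraries and 26.4, 36.5 and 19.0 in XCR1 libraries.

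CD301b against SIRPa cells differed in 1 member. Over all genes 2.2% were higher and 2.08% lower in CD301b cells, and of the 93 members 1 was higher and 0 lower, with no lower call by DESeq2 or limma-voom. At an unadjusted p under 0.05 there were 12 members (12.9%), near the 14.4% of all genes. Atp5j encodes coupling factor 6 of the peripheral stalk, on chromosome 16 at 84827866 to 84835625. It had 110, 118 and 112 CPM in CD301b libraries, against 78.9, 79.5 and 82.2 CPM in SIRPa libraries. The libraries of each population were close together and the populations did not overlap (0.49 ± 0.11, adjusted p = 0.0119). In XCR1 libraries it had 93.8, 89.5 and 92.4 CPM, between the other two.

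Atp5j shares 397 of 3130 exonic bases with Gabpa on the opposite strand. The call was lost without CD301b replicate 3 or any 1 SIRPa library (adjusted p up to 0.0739), and without CD301b replicate 4 there were 2 calls. Over all tested members, 74 of 93 log2 fold changes were positive, as were 7831 of the 15417 genes tested. The median was 0.21 over the members and 0.01 over all genes. Atp5j and 15 members that did not pass had all CD301b libraries above all SIRPa libraries, 17.2% of members against 10.7% of all genes. All CD301b libraries lay below in 1 member (1.08%), against 11.4% of all genes. The median was 0.25 without CD301b replicate 4, the library with the lowest CD301b sum, and 0.11 without CD301b replicate 3.

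The 4 subunits of complex II gave no call in any comparison. Over all genes 13.9% were higher and 10.7% lower in SIRPa against XCR1 cells. With only 4 genes, the lack of calls does not set complex II apart. Sdha, the flavoprotein, had 244, 218 and 202 CPM in CD301b libraries, 189, 202 and 221 in SIRPa libraries and 222, 195 and 173 in XCR1 libraries. Sdhb, the iron-sulfur protein, had 65.2, 74.0 and 57.4 CPM in CD301b libraries, 62.2, 69.6 and 68.9 in SIRPa libraries and 72.0, 76.0 and 64.0 in XCR1 libraries. Both overlapped in every pair of populations. The membrane anchors Sdhc and Sdhd had log2 fold changes of 0.36 ± 0.18 and 0.03 ± 0.17 in SIRPa against XCR1 cells, and 0.37 ± 0.18 and -0.01 ± 0.17 in CD301b against XCR1 cells.

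Subunit c, the ring that turns in the membrane part of ATP synthase, is made by 3 genes whose mature products are known to be the same protein. Atp5g1 was lower in SIRPa cells, at 14.4, 16 and 22.0 CPM, against 28.3, 37.7 and 26.6 CPM in XCR1 cells (-0.82 ± 0.24, adjusted p = 0.014), a call lost without SIRPa replicate 1, SIRPa replicate 2 or XCR1 replicate 2. The CD301b libraries had 23.7, 36.8 and 22.7 CPM, above every SIRPa library. Atp5g2 had 30.9, 32.6 and 27.3 CPM in SIRPa and 39.0, 30.7 and 34.4 CPM in XCR1 libraries, and Atp5g3 41.2, 43.8 and 32.3 CPM in SIRPa and 49.2, 50.8 and 59.8 CPM in XCR1 libraries, and neither passed (adjusted p = 0.526 and 0.0817). The last 111 coding bases of the 3 genes, read from the reference transcripts, show where the genes differ although they encode the same ring protein. They lie on the minus strand of GRCm38 at chr11:96073107-96073217 (Atp5g1), chr15:102663017-102663127 (Atp5g2) and chr2:73908596-73908706 (Atp5g3), and capitals mark positions at which the 3 are not all alike.
Atp5g1: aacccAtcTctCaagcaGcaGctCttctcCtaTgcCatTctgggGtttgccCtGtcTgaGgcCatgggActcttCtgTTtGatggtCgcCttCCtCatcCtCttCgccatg
Atp5g2: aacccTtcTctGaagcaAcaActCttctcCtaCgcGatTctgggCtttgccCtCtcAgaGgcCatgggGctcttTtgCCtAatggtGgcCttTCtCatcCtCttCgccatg
Atp5g3: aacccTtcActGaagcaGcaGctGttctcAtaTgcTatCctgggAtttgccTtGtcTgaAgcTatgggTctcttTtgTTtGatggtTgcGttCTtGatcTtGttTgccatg
In this stretch 82 of 111 bases were alike in all 3 genes. Atp5g1 and Atp5g2 shared 85.6% of bases and at most 18 in a row, and Atp5g2 and Atp5g3 76.6% and at most 8 in a row. Annotated pseudogene copies of near-identical sequence held reads equal to 9.55% of those of Atp5g1 and 4.75% of those of Atp5g2, so a part of the reads could have been split between gene and copy. As a share of subunit c transcripts per kilobase, Atp5g1 took 19.4 ± 5.38% in SIRPa and 25.3 ± 5.02% in XCR1 libraries (SD, n = 3 each), a difference that did not exceed the spread (exact permutation test, two-sided, p = 0.3, smallest possible 0.1). Atp5g2 took 35.1 ± 5.65% in CD301b and 44.9 ± 1.63% in SIRPa libraries, without overlap (exact permutation p = 0.1, the smallest that 3 against 3 libraries allow).

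Other subunits come in alternative forms, most of which were scarce here. Cox6a2, the heart and muscle form of subunit 6A, had 1.35, 0.0838 and 0.93 CPM in CD301b libraries, 3.12, 1.36 and 2.36 in SIRPa libraries, and 0.249, 0 and 0.579 in XCR1 libraries. Per kilobase it made 4.19 ± 1.22% of COX6A transcripts in SIRPa and 0.366 ± 0.404% in XCR1 libraries (SD, n = 3 each), which did not overlap (exact permutation p = 0.1, the smallest possible). The edgeR test gave it an adjusted p of 0.142 in that comparison. Its reads were 66, 31 and 50 in SIRPa libraries and 5, 0 and 12 in XCR1 libraries, and its exons share 70 of 680 bases with Itgad on the opposite strand.

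Cox6b2, known as the testis form of subunit 6B, had 102, 40 and 101 reads in CD301b libraries, 18, 55 and 29 in SIRPa libraries and 25, 1 and 6 in XCR1 libraries. It made 6.53 ± 2.8% of COX6B transcripts in CD301b and 1.31 ± 1.61% in XCR1 libraries (exact permutation p = 0.1, the smallest possible, n = 3 each), and its adjusted p was 0.0703. Cox4i2, the hypoxia-linked form of subunit 4, had 41 reads over the 3 SIRPa libraries, against 2 over the CD301b and 5 over the XCR1 libraries. Cox7a1, the muscle form of subunit 7A, had at most 24 reads in any library. Of the transcripts of Cox7a1, Cox7a2 and the related gene Cox7a2l together, Cox7a2l took 65.6 ± 4.3% in CD301b libraries, 68.4 ± 5.18% in SIRPa libraries and 67.3 ± 4.18% in XCR1 libraries. Cox7a2 took most of the rest. These shares do not show which protein fills the place of subunit 7A. Cox8a, the form of subunit 8 that was read, had 90.0, 134 and 72.9 CPM in CD301b libraries, 70.3, 70.5 and 101 in SIRPa libraries and 64.0, 72.4 and 94.4 in XCR1 libraries, and Cox6b1 gave adjusted p of 0.301 or more in each comparison.

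**Figure D4:**
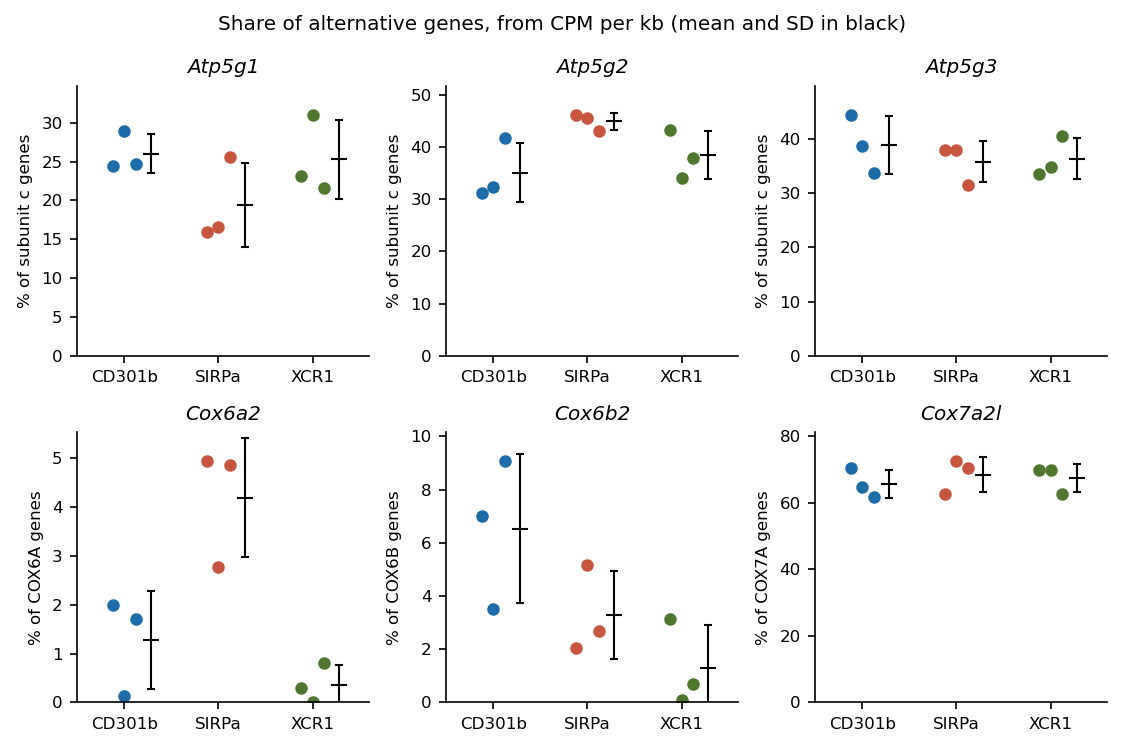
Share (y axis, percent, from CPM per kilobase of a reference transcript) of 6 genes among the related genes of their family (subunit c, COX6A, COX6B or COX7A), in each library by population (x axis), with the mean and SD of 3 libraries in black. Cox6a2 takes 4.19% in SIRPa and 0.366% in XCR1 libraries on average, and the 3 subunit c genes each take a sizeable share everywhere.

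Atpif1, the inhibitor that binds F1 when the proton gradient collapses, is no member by its name and was set beside them. It had 165, 199 and 130 CPM in CD301b and 121, 167 and 167 CPM in SIRPa libraries, against 414, 446 and 413 CPM in XCR1 libraries. Every XCR1 library had more than 2 times the level of every other library. The log2 fold change was -1.36 ± 0.15 in CD301b (adjusted p = 9.67e-07) and -1.49 ± 0.15 in SIRPa cells against XCR1 cells (adjusted p = 3.35e-07), a wider gap than in any complex V subunit, and both calls were kept in all 16 alternatives. The gene lies on chromosome 4 at 132530555 to 132533659 and shares 485 of 1441 exonic bases with the antisense transcript Gm12999.

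Promoters of the members were read from RefSeq windows of 250 bases before to 50 after the start (GRCm38.p6), which 77 of the 93 tested members had. Searched on both strands were the letters GCGC, any 2 bases, then GCGC, the palindrome of nuclear respiratory factor 1 (NRF1), CCGGAAG, an ETS-type site such as that of GABP, and AAGATGGCG, a YY1-type site. The NRF1 letters were in 29.9% of the members' promoters, 14.8% of those of all tested genes and 7% of all genes with a window. The ETS letters were in 28.6%, 20% and 9.93%, and the YY1 letters in 10.4%, 3.5% and 1.64%. Of the 19 genes lower in SIRPa than in XCR1 cells, 15 had a window. Of these, 3 (20%) held the NRF1 letters, 1 (6.67%) the ETS letters and 3 (20%) the YY1 letters. Any of the 3 was in 6 genes (40%), against 58.4% of the tested members with a window and 33.6% of all such tested genes. Whether the letters bear on the difference between the populations was not tested. The 30 bases around 1 match in each of these 6 genes are shown as examples, with the matched letters in capitals.
Cox6a1: cggataaagtGCGCAGGCGCtggagttcct
Atp5c1: ctgagctcccGCGCACGCGCactgagtccc
Ndufa6: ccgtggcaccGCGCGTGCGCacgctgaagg
Ndufa9: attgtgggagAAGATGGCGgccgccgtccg
Ndufs4: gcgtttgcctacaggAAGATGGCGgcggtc
Atp5j2: ccaggacttcAAGATGGCGtcactcggtga
All are on the minus strand of GRCm38, at chr5:115349056-115349085 (Cox6a1), chr2:10080430-10080459 (Atp5c1), chr15:82354249-82354278 (Ndufa6), chr6:126849096-126849125 (Ndufa9), chr13:114388045-114388074 (Ndufs4) and chr5:145191499-145191528 (Atp5j2). The matches begin at base -117 of Cox6a1, -17 of Atp5c1 and 24 of Ndufa6 for the NRF1 letters, and at bases 30, 36 and 24 of Ndufa9, Ndufs4 and Atp5j2 for the YY1 letters, counted from the start as base 1. A match is a run of letters and not a shown binding site.

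Of the 11 tested subunits encoded by mitochondrial DNA, 0 were called in any comparison, with medians of -0.04 in CD301b against SIRPa, 0.15 in CD301b against XCR1 and 0.15 in SIRPa against XCR1 cells. At an unadjusted p under 0.05 there were 1, 0 and 2 in the same order, where 14.4%, 32.2% and 33.3% of all genes had such a p. Of 23 genes for cytochrome c, cytochrome c1, ubiquinone synthesis and carriers, 2 were higher (8.7%) and 3 lower (13%) in SIRPa against XCR1 cells, where 13.9% and 10.7% of all genes were. Cycs, the cytochrome c that carries electrons from complex III to IV, had 57.0, 74.5 and 66.8 CPM in SIRPa libraries, against 125, 113 and 109 CPM in XCR1 libraries (-0.81 ± 0.13, adjusted p = 8.8e-05). Gpd2, the glycerol phosphate dehydrogenase that feeds electrons to ubiquinone, had 52.4, 69.3 and 59.2 CPM in SIRPa libraries, against 126, 139 and 107 CPM in XCR1 libraries (-1.04 ± 0.15, adjusted p = 1.32e-05). Both were lower without overlap in CD301b against XCR1 cells as well (-0.46 ± 0.13, adjusted p = 0.0145, lost without CD301b replicate 3 or XCR1 replicate 1, and -1.26 ± 0.15, adjusted p = 1.1e-06). Also called in SIRPa against XCR1 cells were the ADP/ATP carrier Slc25a5 (-0.40 ± 0.11), Coq8a (1.52 ± 0.45) and Etfdh (0.57 ± 0.19), and in CD301b against XCR1 cells Coq8a (1.31 ± 0.45).

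Of 39 tested assembly factors whose names fall outside the rule, 1 was higher and 1 lower (2.56% each) in each comparison against XCR1 cells. Over all genes 13.9% were higher and 10.7% lower in SIRPa cells, and 13.5% and 9.12% in CD301b cells. In CD301b against SIRPa cells 0 were called and 2 had an unadjusted p under 0.05, as did 14.4% of all genes. Bcs1l, which inserts the Rieske protein into complex III, was higher in SIRPa cells, at 7, 5.62 and 5.94 CPM, against 0.798, 1.19 and 1.78 CPM in XCR1 cells (2.29 ± 0.70, adjusted p = 0.0184). Every SIRPa library was above every XCR1 library, and the call was lost without SIRPa replicate 1, SIRPa replicate 3 or XCR1 replicate 1. Coa5, a complex IV factor, was lower in CD301b and in SIRPa cells against XCR1 cells (-0.45 ± 0.13, adjusted p = 0.0158 and -0.40 ± 0.13, adjusted p = 0.0275). Timmdc1, a complex I factor, was higher in CD301b than in XCR1 cells (0.82 ± 0.28, adjusted p = 0.0378), a call kept in 8 of 16 alternatives and lost when CD301b replicate 1, CD301b replicate 3, SIRPa replicate 2, SIRPa replicate 3, XCR1 replicate 1 or XCR1 replicate 3 was left out. The Coa5 calls were lost without XCR1 replicate 2 in both comparisons, without CD301b replicate 3 in the first and without SIRPa replicate 1 or 2 in the second.

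Of 19 genes of the tricarboxylic acid cycle and pyruvate dehydrogenase, 1 was higher (5.26%) and 3 lower (15.8%) in SIRPa against XCR1 cells, where 13.9% and 10.7% of all genes were. In CD301b against XCR1 cells 4 were higher (21.1%) and 3 lower (15.8%), where 13.5% and 9.12% of all genes were. Cs, citrate synthase, had 144, 135 and 143 CPM in SIRPa libraries, against 245, 251 and 221 CPM in XCR1 libraries (-0.76 ± 0.10, adjusted p = 7.14e-06). In CD301b libraries it had 179, 184 and 167 CPM, also below XCR1 (-0.44 ± 0.10, adjusted p = 0.00312). Idh2 and Suclg1 were the other two lower genes in both comparisons, while Pdha1 was higher in both (0.53 ± 0.14 in SIRPa and 0.57 ± 0.14 in CD301b cells). Fh1, fumarase, was higher in CD301b cells, at 103, 90.6 and 58.3 CPM, against 52.3, 58.8 and 55.3 CPM in SIRPa cells (0.60 ± 0.17, adjusted p = 0.0471) and 53.8, 52.2 and 52.5 CPM in XCR1 cells (0.67 ± 0.17, adjusted p = 0.00567). CD301b replicate 4 lay within the SIRPa range. The call against XCR1 cells was lost without CD301b replicate 1 (adjusted p = 0.0665), and that against SIRPa cells without CD301b replicate 1 or 3, XCR1 replicate 1 or any 1 SIRPa library (adjusted p up to 0.299).

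Of 20 nuclear regulators of mitochondrial genes, 3 were higher and 2 lower in SIRPa against XCR1 cells, 3 higher and 1 lower in CD301b against XCR1 cells, and 0 in CD301b against SIRPa cells, where 1 had an unadjusted p under 0.05. In the first comparison these were 15% and 10% of the list, near the 13.9% and 10.7% of all genes, and in the second 15% and 5%, against 13.5% and 9.12% of all genes. Hif1a, the hypoxia factor, had 161, 155 and 164 CPM in CD301b and 173, 193 and 167 CPM in SIRPa libraries, against 101, 104 and 100 CPM in XCR1 libraries (0.65 ± 0.11, adjusted p = 7.51e-05 and 0.81 ± 0.11, adjusted p = 5.28e-06). Ppargc1b, a coactivator of mitochondrial genes, had 12.5, 17.7 and 16.4 CPM in CD301b and 11.0, 12.8 and 19.2 CPM in SIRPa libraries, against 4.09, 5.18 and 3.62 CPM in XCR1 libraries (1.85 ± 0.32, adjusted p = 0.000169 and 1.73 ± 0.32, adjusted p = 0.00031). In both genes the XCR1 libraries lay below all others. Its relative Ppargc1a, named after its values were seen, had 15, 20 and 41 reads in CD301b and 14, 24 and 7 in SIRPa libraries and none in XCR1 libraries, where 3 reads would have given at most 0.1497 CPM. The lower genes were Hcfc1 and Pprc1 in SIRPa and Polg in CD301b cells.

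The difference between SIRPa and XCR1 cells was not limited to the chain. Of 89 tested cytosolic ribosomal protein genes, 44 (49.4%) were lower and 0 higher in SIRPa cells, with a median log2 fold change of -0.33, and of 40 proteasome subunit genes 16 (40%) were lower and 0 higher, with a median of -0.33. In CD301b against XCR1 cells 13 ribosomal protein genes (14.6%) and 11 proteasome genes (27.5%) were lower and 0 higher. Of all genes 9.12% were lower and 13.5% higher in that comparison. In CD301b against SIRPa cells 1 gene of each list was higher and 0 lower, where 2.2% and 2.08% of all genes were. A single call does not set either list apart from other genes. Ribosomal protein genes summed to 30818 ± 2274 CPM in SIRPa and 38658 ± 1858 CPM in XCR1 libraries (SD, n = 3 each). In the ribosomal list Rplp1, a protein of the stalk, was lower by -0.62 ± 0.10, and Psmb9 and Psmb8, subunits of the immunoproteasome, led the proteasome list (-1.34 ± 0.14 and -0.74 ± 0.11). As a description over the 9 libraries, genes outside the rule whose log2 CPM followed the mean of the tested subunits closely included Cdc5l (Pearson r 0.968), Trir (0.956), E130309D02Rik (0.954) and Chd4 (0.951), in libraries that share their depth and scaling with the members.

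**Figure D5:**
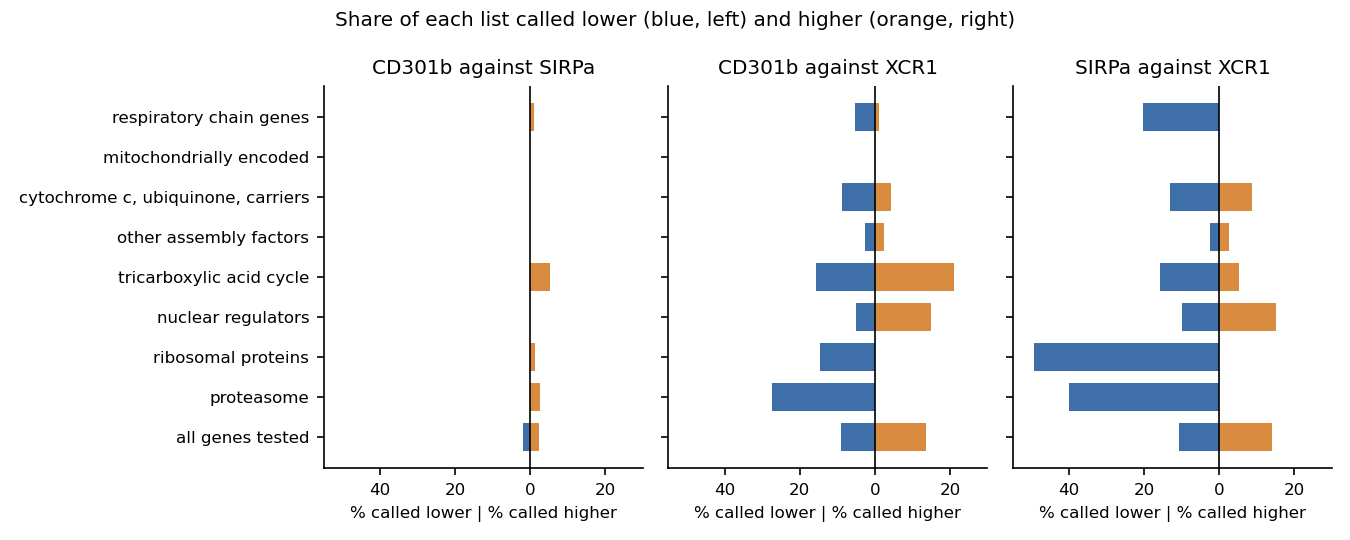
Percentage of the tested genes of each list (rows) called lower, to the left, and higher, to the right, in each of the 3 comparisons, with all tested genes in the lowest row. In SIRPa against XCR1 cells 20.4% of respiratory chain genes, 49.4% of ribosomal protein genes and 40% of proteasome genes were lower, against 10.7% of all genes.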

How the data were processed

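RNA-seq libraries of 3 sorted populations were analysed from the authors' deposited table of raw gene counts (55302 rows by gene symbol). A second deposited table, of log2 values per gene, was not used in any test. Per the submitters' processing notes the tools were FastQC, Trimmomatic, HISAT2, SAMtools, featureCounts of Subread and edgeR, with build mm10; their versions, the strand setting and the treatment of reads that map to several places are not stated in the labels. Symbols that a spreadsheet had turned into dates (24 rows) were set aside, with 0.1245% to 0.187% of the counts of a library.

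Genes with enough counts (filterByExpr, minimum count 10) were kept, 15417 in all, and fitted over all 9 libraries with edgeR 4.0.16 in R 4.3.3 (TMM scaling, quasi-likelihood F test, Benjamini-Hochberg adjustment over all genes tested, threshold 0.05). Library totals of 20246092 to 25438864 counts limit precision for members with few reads. CPM use totals multiplied by the TMM factors. Limma-voom (limma 3.58.1), DESeq2 1.42.0, other scalings, no count filter, only the libraries compared, a replicate block and leaving out each library in turn were the alternatives. The edgeR step was also run on counts simulated as independent libraries from its own estimates of spread, and the outcome is not reported here. Floors cover counting error only, and the SD of a share is the spread over the 3 libraries of a population.

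The genes and lists were chosen with earlier results of these data known. The rule named, per comparison and direction, the 6 called members with the smallest adjusted p, the member with the highest mean of each complex and of the assembly factors, all of complex II, the alternative subunits with Atpif1, and up to 2 called genes per other list and comparison. Other genes in the text, such as the rest of the called members, were named after their values were seen. Gene positions and exon overlaps come from GENCODE M21 (GRCm38), promoters from RefSeq (GRCm38.p6). Some genes that the rule names are not reported here.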

Additional observations from a re-analysis of the deposited data

How the results depend on the processing

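Across 16 alternatives no named gene that was called changed sign. In CD301b against SIRPa cells the 1 higher member became 2 with a replicate block and 0 to 2 when 1 library was left out. In CD301b against XCR1 cells the 1 higher member became 3 with DESeq2, 2 with library totals only, 2 with limma-voom, 0 with only the 6 libraries compared, 3 with a replicate block and 0 to 2 when 1 library was left out. The 5 lower members became 2 with only the 6 libraries compared, 2 with a replicate block and 2 to 5 when 1 library was left out. The median of -0.07 became 0.07 with a replicate block and -0.13 to 0.02 when 1 library was left out. In SIRPa against XCR1 cells the 0 higher members became 1 with DESeq2 (Cox6a2) and 0 to 1 when 1 library was left out. The 19 lower members became 11 with library totals only, 22 with a replicate block and 8 to 24 when 1 library was left out. With library totals only these were 11.8% of members against 8.88% of all genes, and at the low end, without SIRPa replicate 1, 8.51% against 8.16%. The cause of these changes was not tested. Of the alternatives for single named genes, 2319 stayed on the same side of the threshold, 18 gained a call and 109 lost one. Sign changes of genes that passed in neither fit were not counted apart and fall among the 2319. Over 7 pairs of libraries of equal replicate number, the correlation of deviations from the population means was 0.003 to 0.041. Over pairs of unequal number it was -0.067 to 0.048. Such correlations cannot show whether libraries came from the same mouse. Depth limits the rarest tested members: Cox6a2 and Cox7a1 had standard errors of 1.33 to 2.17 on the log2 scale.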
